A study of Mus musculus with 12 samples.

Results

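The comparison described is that of 3 arrays of claudin-2 transgenic (TG) colon epithelium taken under dextran sulfate sodium (DSS) with 3 arrays of TG epithelium taken on water, 6 of the 12 arrays of the series, chosen by their titles. Every probe set with a single gene symbol was used, which gave 19935 genes. The TG mice carried Villin-Claudin-2, a transgene named for villin, a brush border protein of gut epithelium. They were males of 8 to 10 weeks, the DSS group drank 4% w/v DSS for 10 days, and the water group drank normal water over the same time. The other 6 arrays were of wild-type (WT) male littermates of the same age on the same 2 treatments, 3 arrays each. They are used only for comparison with the TG arrays. The cells are labelled as colon epithelial cells. The labels give no strain and do not tie each array to a separate animal, so a p-value here measures only the spread between these samples, which may be technical.

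Claudin-2 sits in tight junctions, where it lets small cations and water pass between epithelial cells. DSS is a sulfated polymer that injures the colon lining when drunk, and injured epithelium is known to make antimicrobial and acute-phase proteins, to lose the transporters of mature absorptive cells and to divide in order to refill the surface. Absorptive colonocytes take up sodium through the epithelial sodium channel, and the intestine keeps a daily clock whose output genes vary with the hour.

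Signals below are on the log2 scale, with 0 at the median of all 12 arrays for that probe set. A value therefore compares arrays and gives no absolute level, and whether the epithelial markers are present or absent could not be read from it. The 18 pan-epithelial genes had medians of -0.17, 0.03 and 0.02 on TG DSS arrays 1, 2 and 3 and of 0.11, 0.07 and -0.07 on TG water arrays 1, 2 and 3. Epcam, an adhesion protein of epithelia, read -0.21, 0.02 and -0.06 under DSS and 0.01, 0.08 and 0.02 on water. Cldn2 itself read -0.24, 0.27 and 0.15 under DSS and 0.36, 0.18 and -0.02 on water, with overlapping groups and a difference of -0.11 ± 0.16 (limma adjusted p = 0.867; errors are SE throughout, n = 3 arrays in each group). On the WT water arrays Cldn2 read -0.04, 0.02 and 0.11, which overlapped the TG water arrays. Whether its 1 probe set reports the transgene was not tested. Among the TG DSS arrays, array 1 stood apart: 285 of 28815 probe sets lay over 1 log2 unit from their median there, against 53 and 90 on DSS arrays 2 and 3 and 22 to 91 on the TG water arrays. Of the WT arrays, DSS array 2 stood farthest apart, with 3795 such probe sets and a pan-epithelial median of -2.23.

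No gene separated the TG DSS arrays from the TG water arrays at an adjusted p under 0.05 in limma on the 6 arrays (0 of 19935, 0.0%), and the smallest adjusted p was 0.278. At an unadjusted p under 0.05 there were 1126 genes (5.65%), 638 higher under DSS (3.2%) and 488 lower (2.45%). The 3 DSS arrays lay above all 3 water arrays for 1348 genes (6.76%) and below them for 1323 (6.64%), together 13.4% of genes. For 65 genes (0.326%) the gap between the groups exceeded 0.2 log2 units with DSS above, and for 48 (0.241%) with DSS below. The median difference over all genes was -0.01. The 95% interval of a difference reached 0.26 to either side for the median gene, and for 97.2% of genes it lay within 1 log2 unit of 0. Since no difference passed, the genes below are described by their arrays and their intervals.

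The widest gap was that of Clca4b, of the family of calcium-activated chloride channel regulators. It read 1.70, 0.40 and 0.93 under DSS and -1.89, -1.64 and -1.31 on water. Every DSS array exceeded every water array by at least 1.71, and the mean difference was 2.62 ± 0.31 (6.16-fold; 95% interval 1.89 to 3.36; limma adjusted p = 0.278). On the WT water arrays the same gene read -2.57, 0.28 and -2.19, so it also ranged widely without DSS.

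Mmp3, the matrix protease stromelysin, read 2.41, 0.41 and 0.95 under DSS and -0.84, -0.62 and -0.69 on water. The groups did not overlap, DSS array 1 was the highest, and the difference was 1.97 ± 0.45, or 1.40 ± 0.17 without that array. Pla2g5, a secreted phospholipase A2, read 0.67, 0.70 and 1.04 under DSS and -0.52, -0.46 and -0.15 on water. Here the 3 DSS arrays lay close together, and the difference was 1.18 ± 0.14 (2.27-fold; limma adjusted p = 0.278). Ddah1, which breaks down an inhibitor of nitric oxide synthases, differed by 1.49 ± 0.41, with DSS arrays at 1.98, 0.33 and 0.50 and water arrays at -0.33, -0.64 and -0.70. Tac1, the precursor of substance P, differed by 1.41 ± 0.31, with DSS arrays at 1.35, 0.17 and 0.45 and water arrays at -0.37, -0.81 and -1.08.

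The other genes with wide gaps above water included enzymes, a transporter and secreted defence proteins. The carboxylesterase Ces2e stood 0.93 ± 0.18 higher, the steroid dehydrogenase Hsd3b3 1.74 ± 0.36 and the nucleoside transporter Slc28a3 0.84 ± 0.14. Hsd3b3 was highest on DSS arrays 2 and 3, at 1.89 and 1.54 and lower on array 1, at 0.62, unlike Mmp3. Cebpd, a transcription factor of the acute-phase response, read 0.37, 0.26 and 0.18 under DSS against -0.31, -0.26 and -0.27 on water, a small difference of 0.55 ± 0.08 with little spread. Complement factor B, Cfb, read 0.32, 0.41 and 0.38 against -0.05, -0.16 and -0.08. Retnlb, a goblet cell protein that acts on bacteria, read 3.12, 0.99 and 0.14 against -0.25, -0.94 and -0.75, and Plet1 read 2.81, 0.01 and -0.01 against -1.24, -0.74 and -0.40. For both, array 1 carried most of the difference, which was 2.06 ± 0.68 for Retnlb and 1.21 ± 0.29 without that array. Kctd5, Ddx20, an RNA helicase, and Cd177, a surface protein of neutrophils, stood higher by 0.67 ± 0.11, 0.55 ± 0.13 and 0.91 ± 0.19. Cd177 did not follow the list of neutrophil genes. It read 1.07, 0.27 and 0.86 on DSS arrays 1, 2 and 3, where the list medians were 0.61, -0.04 and -0.04. Its WT difference was -0.05, beside a list median of 1.89.

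**Figure D1:**
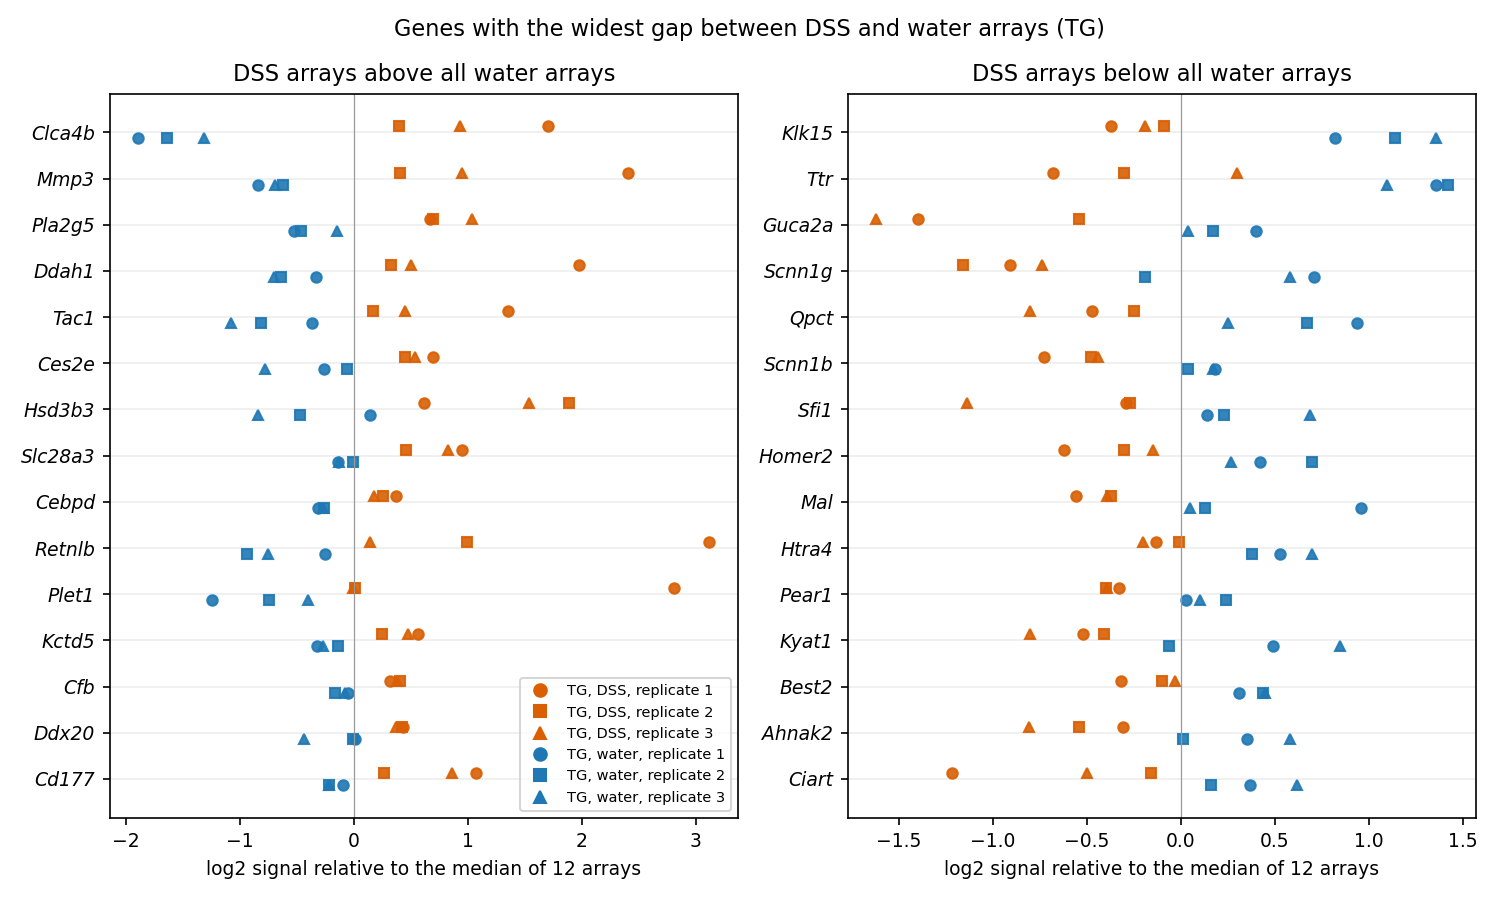
Log2 signal of the 15 genes with the widest gap in each direction on the 6 TG arrays, relative to the median of 12 arrays; 1 point per array, orange for DSS, blue for water, with the marker shape giving the replicate. Clca4b has water arrays from -1.89 to -1.31 and DSS arrays from 0.40 to 1.70, while for Plet1 and Retnlb DSS replicate 1 lies far to the right of the other DSS arrays.

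In the other direction, the widest gap was that of Klk15, a kallikrein-related serine protease, which read -0.37, -0.09 and -0.19 under DSS and 0.82, 1.14 and 1.36 on water. The difference was -1.32 ± 0.15 (2.5-fold lower; 95% interval -1.67 to -0.97; limma adjusted p = 0.278), and it was -1.24 ± 0.16 without DSS array 1. Ttr, the carrier of thyroid hormone, read -0.68, -0.30 and 0.30 under DSS and 1.36, 1.42 and 1.10 on water. The groups stood 0.80 apart at their nearest arrays, with a mean difference of -1.52 ± 0.23. On the WT water arrays Klk15 read 0.09, 1.52 and 1.03 and Ttr -0.31, 1.03 and 1.24, so both also ranged widely without DSS. For Ttr, WT water array 1 lay within the range of the TG DSS arrays.

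Genes of salt and water handling in the colon surface were among those with the widest gaps below water. Guca2a, which encodes guanylin, a peptide that drives fluid secretion, read -1.40, -0.54 and -1.62 under DSS and 0.40, 0.17 and 0.04 on water, a difference of -1.39 ± 0.27. Scnn1g, the gamma subunit of the epithelial sodium channel, read -0.91, -1.16 and -0.74 against 0.71, -0.19 and 0.58. Scnn1b, the beta subunit, read -0.73, -0.48 and -0.44 against 0.18, 0.04 and 0.17. Both subunits were lower on every DSS array than on any water array, Scnn1g by -1.30 ± 0.24 and Scnn1b by -0.68 ± 0.10. The alpha subunit, Scnn1a, also did not overlap, at -0.50, -0.11 and -0.37 against 0.32, 0.17 and 0.11, a difference of -0.53 ± 0.12. Sgk1, a kinase that keeps the channel at the cell surface, read -0.94, -0.69 and -0.54 against 0.37, -0.30 and -0.23, a difference of -0.67 ± 0.19. Hsd11b2, which shields the mineralocorticoid receptor from glucocorticoids, read -0.26, -0.10 and -0.02 against 0.12, 0.08 and 0.15. For none of these 6 did the adjusted p fall under 0.05. Other transport genes did not fall on every DSS array. Relative to the TG water mean, the water channel Aqp4 stood higher on DSS arrays 1, 2 and 3, by 0.62, 0.25 and 0.44. Aqp8 differed from that mean by -0.48, 0.09 and -0.40, and Atp12a by -0.15, 0.14 and 0.11.

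The whole list of 30 absorptive colonocyte genes had a median difference of -0.29, beside -0.01 for all genes, and 25 of the 30 lay below 0, or 83.3%, beside 53.8% of all genes. The arrays of 10 members did not overlap with DSS below (33.3%, beside 6.64% of all genes) and those of 2, Saa1 and Slc51b, with DSS above (6.67%, beside 6.76%). At an unadjusted p under 0.05, 9 members were lower (30%, beside 2.45% of all genes) and 2 higher (6.67%, beside 3.2%), and none passed after adjustment. Without DSS array 1 the list median was -0.16. The list medians were -0.32, 0.03 and -0.34 on DSS arrays 1, 2 and 3 and 0.15, 0.07 and -0.03 on the water arrays, so DSS array 2 lay within the water range. Car1, a carbonic anhydrase, read -0.39, -0.07 and -0.17 against 0.26, 0.13 and -0.02, whereas Slc26a3, the chloride and bicarbonate exchanger, overlapped at -0.78, 0.08 and -0.12 against 0.32, 0.11 and -0.08. In bulk samples fewer cells of a type and less RNA per cell cannot be told apart.

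The antimicrobial and acute-phase list held 31 measured genes with a median difference of 0.42, and 23 of them lay above 0. With DSS above, 8 did not overlap (25.8%, beside 6.76% of all genes), and none did with DSS below. At an unadjusted p under 0.05, 9 were higher (29%, beside 3.2% of all genes). The list medians were 0.66, 0.00 and 0.04 on the DSS arrays and -0.04, -0.16 and -0.01 on the water arrays, and without DSS array 1 the median difference was 0.10. Saa1, an acute-phase protein, read 0.37, 0.58 and 0.39 under DSS against 0.07, -0.22 and -0.07 on water, with no outlying array. Duox2, which makes hydrogen peroxide at the mucosal surface, read 0.69, 0.55 and 0.05 against -0.48, -0.04 and -0.03. Nox1, the NADPH oxidase of colon epithelium, read 0.59, 0.49 and 0.40 against 0.03, 0.00 and 0.34. For these 3 genes DSS arrays 2 and 3 also lay above every water array. Lbp, which binds bacterial lipopolysaccharide, stood 1.04 ± 0.33 higher, with array 1 at 1.60 and the others at 0.23 and 0.52.

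Other members of that list stood out on DSS array 1 alone. Saa3 read 2.77, -0.10 and 0.15 under DSS, with water arrays at 0.09, -0.23 and -0.09. Lcn2, the siderophore-binding lipocalin, read 2.58, -0.01 and -0.03, with water arrays at 0.10, -0.21 and -0.27. DSS arrays 2 and 3 lay close to the water arrays for both. Mptx1, a mucosal pentraxin, went the other way, at -2.05, 0.48 and -0.06 under DSS against 0.26, 0.06 and -0.29. Over all genes, 143 were more than 1 log2 unit above all of the other 5 TG arrays on DSS array 1 and 12 as far below. The counts were 6 and 2 on DSS array 2, 1 and 4 on DSS array 3, and at most 4 and 5 on any water array. The farthest above were Serpina3n, an acute-phase protease inhibitor, at 3.47, and Mmp13, a collagenase, at 3.31.

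Markers of several other cell types stood highest on the same array. The 21 macrophage and monocyte genes had medians of 0.95, -0.25 and -0.18 on the DSS arrays and from -0.38 to 0.10 on the water arrays, and 19 of 21 differences lay above 0. The 19 fibroblast genes had medians of 0.75, -0.33 and -0.19 under DSS and from -0.48 to 0.14 on water, and the 21 neutrophil genes 0.61, -0.04 and -0.04 under DSS and from -0.12 to 0.00 on water. Without DSS array 1 the median differences of these 3 lists were -0.04, 0.01 and -0.02, against 0.37, 0.36 and 0.20 with it. The T and NK cell, mast cell, adipocyte, smooth muscle and enteric neuron and glia lists did not stand apart there, with medians of 0.10, 0.10, 0.16, 0.04 and -0.03 on DSS array 1 and 0.18, 0.14, 0.21, 0.04 and 0.00 on water array 3. Matrix remodelling genes also stood highest on DSS array 1: 20 of 21 lay above 0 with a median of 0.29, which was -0.07 without that array. The part of these cell types in the antimicrobial, matrix and chemokine values was not tested. For Clca4b, Pla2g5, Klk15 and Scnn1b the differences without DSS array 1 were 2.28, 1.25, -1.24 and -0.59.

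**Figure D2:**
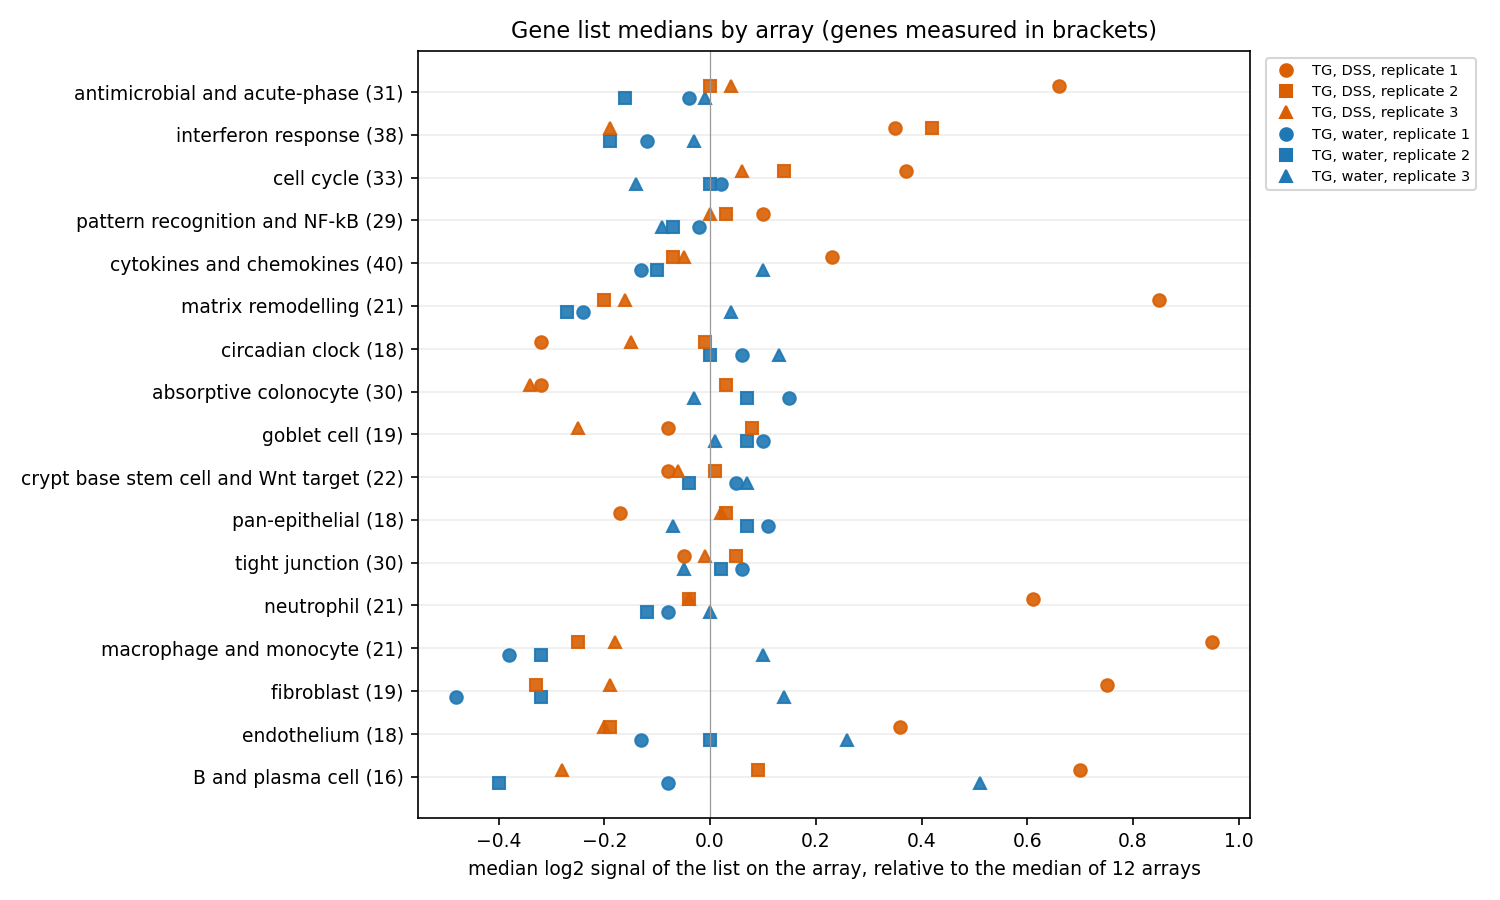
Median log2 signal of each gene list on each of the 6 TG arrays, relative to the median of 12 arrays; orange points are DSS arrays, blue points water arrays, shapes give the replicate and brackets the genes measured. DSS replicate 1 lies alone on the right for the macrophage (0.95), matrix (0.85), fibroblast (0.75) and antimicrobial (0.66) lists. All 3 DSS arrays exceed the water arrays for the cell cycle and pattern recognition lists. They also do so, narrowly, for the antimicrobial list (0.00 on DSS replicate 2, -0.01 on water replicate 3).

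Interferon response genes, which restrict viruses and load antigen, gave another division of the DSS arrays. Of 38 measured, 37 differences lay above 0 (97.4%, beside 46.2% of all genes), with a median of 0.35, and 5 had an unadjusted p under 0.05, all higher (13.2%, beside 3.2%). Yet the list medians were 0.35, 0.42 and -0.19 on DSS arrays 1, 2 and 3 and from -0.19 to -0.03 on the water arrays, so DSS array 3 sat at the lowest water array. The arrays of 4 members did not overlap, all with DSS above (10.5%, beside 6.76% of all genes), namely Mx1, Rsad2, Ifi27l2a and Psmb10. Ifi27l2a read 0.45, 0.71 and -0.01 against -0.23, -0.26 and -0.23 on water, a difference of 0.62 ± 0.17. Stat2, which carries the type I interferon signal to the nucleus, read 0.36, 0.56 and -0.03 against -0.13, -0.26 and 0.01, so array 3 was within the water range.

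The genes that stood farthest above on DSS array 2 were also interferon-induced. Ddx60 read -0.07, 1.97 and -0.91 under DSS and -0.04, -0.03 and 0.03 on water. Irf7, a transcription factor that amplifies the response, read -0.08, 1.20 and -0.95 against 0.08, -0.23 and -0.12. Rsad2, which encodes viperin, read 0.15, 1.17 and 0.00 against 0.00, -0.35 and -0.23. Ifit1, which binds foreign RNA, read 0.43, 1.45 and -1.32 against -1.23, -1.20 and 0.39. DSS array 2 was the highest of the 6 for all 4 of these genes, and for Ddx60, Irf7 and Ifit1 DSS array 3 was the lowest. For Ifit1, water array 3 stood well above the other water arrays.

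The promoters of 3 genes that read highest on DSS array 2 and lowest, of the DSS arrays, on DSS array 3 are shown as examples. Ddx60 and Irf7 read the same way and are not shown. Each is the 250 bases before the RefSeq start in GRCm38.p6, and capitals mark the core of the interferon-stimulated response element, searched as GAAA, then 2 bases of any kind, then GAAA, or as TTTC, 2 bases, TTTC for the other strand. Stat2 lies at chr10:128270248-128270497 on the plus strand, Ifit1 at chr19:34640639-34640888 on the plus strand and Rsad2 at chr12:26456453-26456702 on the minus strand.
Stat2: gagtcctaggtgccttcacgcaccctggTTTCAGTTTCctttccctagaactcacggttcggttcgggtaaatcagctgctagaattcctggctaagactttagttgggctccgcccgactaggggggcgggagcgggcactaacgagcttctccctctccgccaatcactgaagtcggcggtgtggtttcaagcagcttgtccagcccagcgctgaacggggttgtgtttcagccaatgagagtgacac
Ifit1: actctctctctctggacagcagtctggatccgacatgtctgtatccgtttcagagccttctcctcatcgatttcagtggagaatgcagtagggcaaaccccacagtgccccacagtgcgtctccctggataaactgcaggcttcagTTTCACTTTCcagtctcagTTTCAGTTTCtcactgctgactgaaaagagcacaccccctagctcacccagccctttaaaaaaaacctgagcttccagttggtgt
Rsad2: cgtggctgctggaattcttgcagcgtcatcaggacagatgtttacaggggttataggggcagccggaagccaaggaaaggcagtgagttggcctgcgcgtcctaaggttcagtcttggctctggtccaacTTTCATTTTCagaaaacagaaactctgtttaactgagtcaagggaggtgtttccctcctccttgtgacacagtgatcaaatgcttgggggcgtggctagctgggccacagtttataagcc
Ifit1 held 2 matches and the others shown 1 each, and the window of Ddx60 held 2. Of the 27 interferon list genes matched to the table by symbol, 11 held the letters in at least 1 promoter. By promoter, 11 of their 31 held them, beside 2.98% of 32851 promoters. A match is a description of the sequence and was not tested as a binding site.

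**Figure D3:**
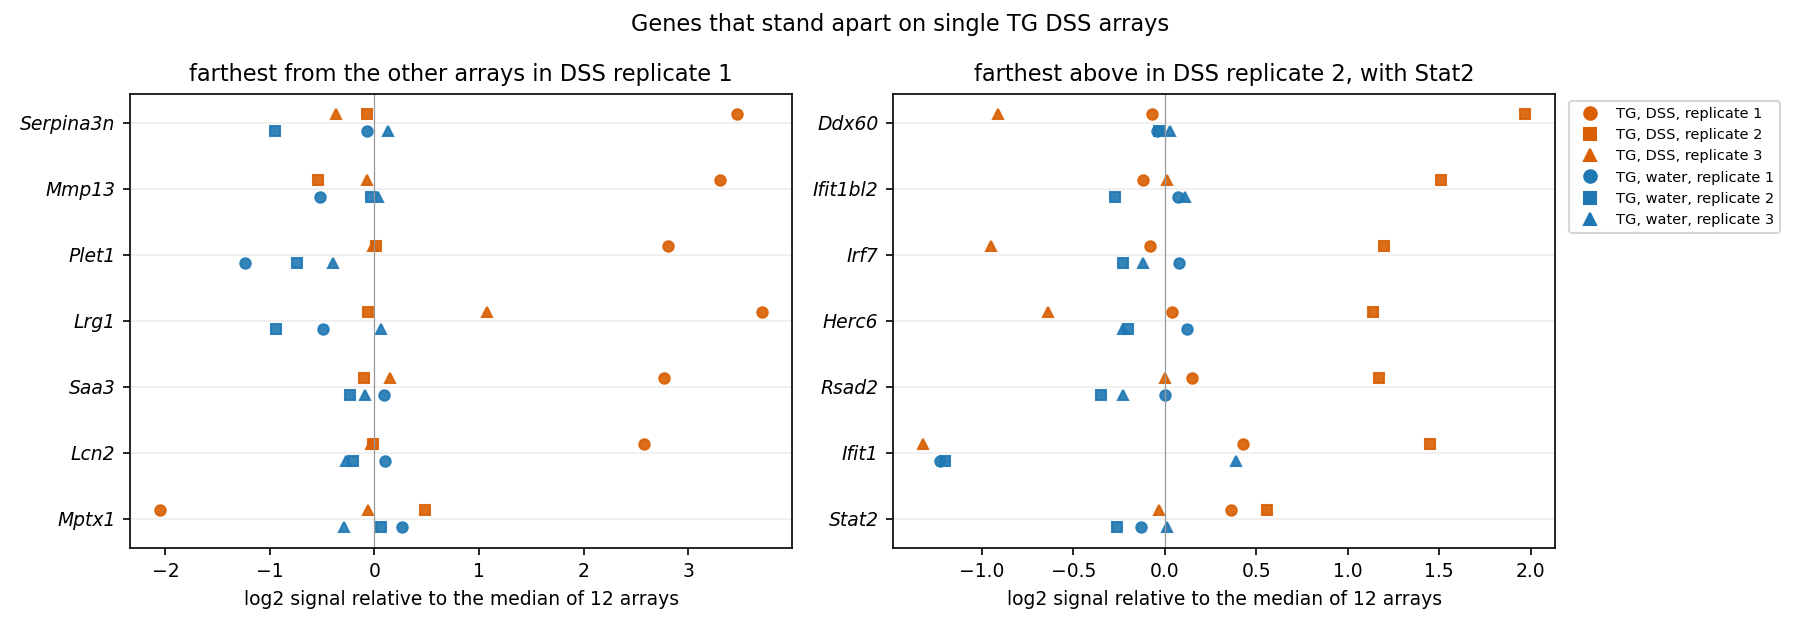
Log2 signal on the 6 TG arrays, relative to the median of 12 arrays, of genes farthest from the other arrays on DSS replicate 1 (left) and farthest above on DSS replicate 2, with Stat2 (right); 1 point per array, orange for DSS, blue for water. Serpina3n and Mmp13 exceed 3 on DSS replicate 1 only, and Ddx60 reaches 1.97 on DSS replicate 2 only.

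On DSS array 3 few genes stood apart. Pla2g2a, a secreted phospholipase that kills bacteria, read 1.96, 1.30 and -2.04 under DSS and 0.36, -0.40 and -0.16 on water. H2-Ea, an MHC class II chain, read 1.08, -0.47 and -1.63 against 0.07, -0.51 and 1.19. Both genes are known to be defective in some inbred mouse strains, and the labels give no strain. Emp1, a membrane protein of surface epithelium, read -0.13, -0.51 and -1.41 against 0.25, 0.03 and 0.26, lower on all 3 DSS arrays and lowest on array 3.

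Cell cycle genes lay slightly higher under DSS on all 3 arrays. Of 33 measured, 31 differences were above 0 (93.9%, beside 46.2% of all genes) with a median of 0.24, 8 did not overlap with DSS above (24.2%, beside 6.76%), and 11 had an unadjusted p under 0.05, all higher (33.3%, beside 3.2%). The list medians were 0.37, 0.14 and 0.06 on the DSS arrays and 0.02, 0.00 and -0.14 on the water arrays, and the median difference without DSS array 1 was 0.17. Mki67, the proliferation antigen, read 0.24, 0.23 and 0.15 against -0.29, 0.08 and -0.08, a difference of 0.30 ± 0.11. Cenpe, a motor of the mitotic spindle, read 0.70, 0.39 and 0.43 against 0.03, 0.22 and -0.23, a difference of 0.50 ± 0.14. Ccnd1, cyclin D1, read 0.26, 0.22 and 0.26 against -0.07, 0.05 and -0.08. These 3 did not overlap, whereas Mcm6, a subunit of the replicative helicase, read 1.06, 0.12 and 0.50 against 0.16, -0.28 and -0.29, with 1 DSS array below 1 water array. The adjusted p was 0.8 for all 4 in limma.

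In WT the same list went the other way, with 31 of 33 differences below 0 and a median of -0.64. The WT DSS arrays were unlike each other, with list medians of 0.06, -0.63 and -1.22, so WT DSS array 1 lay in the range of the WT water arrays, which ran from -0.16 to 0.15. Without WT DSS array 1, 2 or 3 the WT median was -1.12, -0.64 or -0.30, with 32, 30 or 22 of 33 below 0. The TG difference minus the WT difference was tested in limma on all 12 arrays. This test pools 1 spread over the 4 groups. The SD over probe sets was 0.353 to 0.787 on the WT DSS arrays and 0.145 to 0.258 on the others, so its p-values are approximate. The contrast was above 0 for all 33 genes (30 without WT DSS array 3), beside 10409 of 19935 over all genes. For 16 of the 33 the unadjusted p was under 0.05, beside 4.58% of all genes with the TG difference higher and 1.27% with it lower. The contrast was also above 0 for 18 of 18 pan-epithelial and 20 of 20 cholesterol synthesis genes, with such a p for 0 and 2. It was above 0 for 0 of 21 matrix remodelling genes. No gene passed after adjustment (0 of 19935, 0.0%; smallest adjusted p 0.797). That count was 239 without WT DSS array 1 and 6 without WT DSS array 3. For Mki67 the difference of differences was 1.79 ± 0.64, and for Aurkb, a mitotic kinase, it was 1.63 (limma adjusted p = 0.801 for Mki67).

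**Figure D4:**
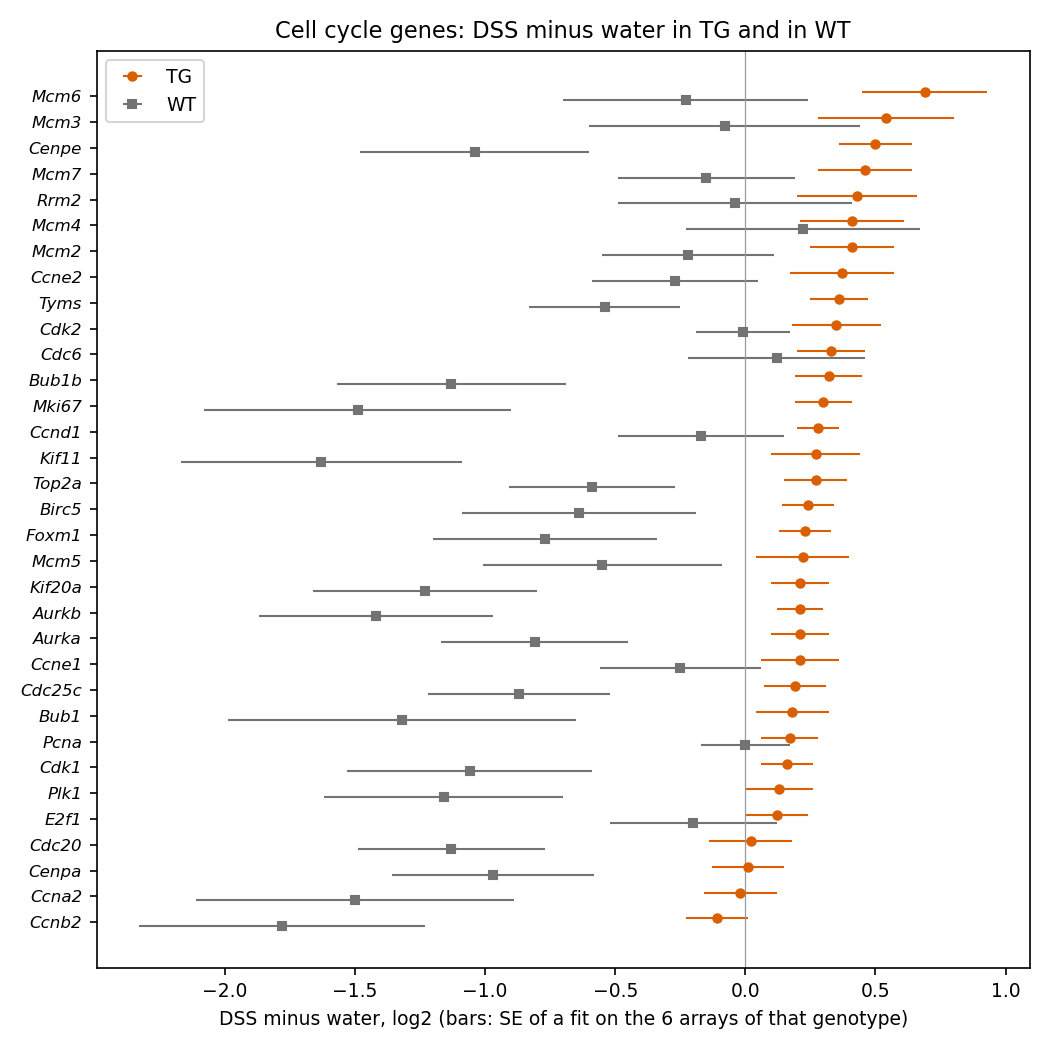
DSS minus water on the log2 scale for the 33 cell cycle genes, in TG (orange circles) and in WT (grey squares); bars are the SE of a fit on the 6 arrays of that genotype. TG differences run from slightly below 0 to 0.69 for Mcm6, and WT differences reach -1.78 for Ccnb2 with wider bars.

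Stem cell and Wnt target genes did not follow the cell cycle list as a whole. Of 22 measured, 15 differences lay below 0 (68.2%, beside 53.8% of all genes), with a median of -0.09. With DSS above, 1 did not overlap (4.55%, beside 6.76% of all genes), namely Myc. With DSS below, 2 did not (9.09%, beside 6.64%), Lgr5 among them. Myc, a Wnt target that drives growth, read 0.57, 0.46 and 0.28 under DSS against 0.13, -0.07 and -0.18 on water, a difference of 0.48 ± 0.12. Lgr5, the receptor of crypt base stem cells, read -1.08, 0.00 and -0.51 against 0.15, 0.13 and 0.03. The 2 groups were 0.02 apart at their nearest arrays, and the difference was -0.63 ± 0.24. In WT it was -2.01, and the TG difference minus that one was 1.38 ± 0.36 (limma adjusted p = 0.797).

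Clock genes stood lower under DSS. Of 18 measured, 14 differences lay below 0 with a median of -0.30, the arrays of 6 did not overlap, all with DSS below (33.3%, beside 6.64% of all genes), and 6 had an unadjusted p under 0.05, all lower (33.3%, beside 2.45% of all genes). Ciart, a repressor within the clock, read -1.22, -0.16 and -0.50 against 0.37, 0.16 and 0.62 on water, a difference of -1.01 ± 0.26. Dbp, an output transcription factor, read -1.04, -0.09 and -0.32 against 0.16, 0.37 and 0.56, a difference of -0.85 ± 0.24. Per1, a core repressor, read -0.65, -0.57 and -0.40 against 0.01, -0.22 and 0.22, a difference of -0.55 ± 0.13. For Ciart and Dbp, array 1 was the lowest and array 2 the nearest to water, and for Per1 the 3 DSS arrays lay close together. Arntl, which activates these genes, overlapped at -0.13, 0.16 and -0.11 against 0.11, -0.23 and -0.89. Without DSS array 1 the list median was -0.17, and without that array and water array 3 it was -0.10. The labels give no hour of collection.

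The promoters of the 3 lower clock genes are shown because the clock activators are known to bind the E-box. Each is the 250 bases before a RefSeq start in GRCm38.p6 with the palindrome CACGTG in capitals, which reads the same on both strands. Per1, 1 of 2 promoters of the gene, lies at chr11:69098699-69098948 on the plus strand, Ciart at chr3:95882229-95882478 on the minus strand and Dbp at chr7:45704997-45705246 on the plus strand. For a gene with several promoters, as Per1, a promoter that held the letters was preferred, so its match was favoured by the choice.
Per1: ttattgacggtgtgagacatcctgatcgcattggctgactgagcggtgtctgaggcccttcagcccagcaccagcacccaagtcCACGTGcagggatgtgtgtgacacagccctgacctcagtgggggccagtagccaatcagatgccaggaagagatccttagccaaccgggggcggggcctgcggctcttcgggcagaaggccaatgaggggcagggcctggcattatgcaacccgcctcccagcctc
Ciart: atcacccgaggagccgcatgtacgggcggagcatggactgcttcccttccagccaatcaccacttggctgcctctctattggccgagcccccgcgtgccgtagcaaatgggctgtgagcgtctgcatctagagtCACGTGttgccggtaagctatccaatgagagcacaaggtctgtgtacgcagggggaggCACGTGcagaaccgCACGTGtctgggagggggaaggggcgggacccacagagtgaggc
Dbp: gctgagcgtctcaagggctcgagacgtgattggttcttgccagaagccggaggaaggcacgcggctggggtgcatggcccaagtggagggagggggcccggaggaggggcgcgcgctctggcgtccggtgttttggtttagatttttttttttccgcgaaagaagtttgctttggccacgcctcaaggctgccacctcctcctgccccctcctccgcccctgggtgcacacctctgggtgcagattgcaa
Ciart held 3 matches and Per1 1, and the letters were not in this window of Dbp. Of 16 clock genes matched by symbol, 5 held the letters in at least 1 promoter. By promoter, 6 of their 21 held them, beside 6.02% of 32851 promoters, and no site was tested.

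Of 29 pattern recognition and NF-kB genes, 7 lay above water on all DSS arrays (24.1%, beside 6.76% of all genes), among them Nod1, Cd14, Myd88, Rel and Nfkbiz. Nfkbib alone lay below (3.45%, beside 6.64%), and the list median was 0.12. Nod1, an intracellular sensor of bacterial cell walls, read 0.33, 0.15 and 0.35 against -0.06, 0.06 and -0.35. Of 40 cytokines and chemokines, none separated the groups of arrays, and the median of 0.13 was -0.05 without DSS array 1. Tnf read 0.74, 0.47 and -0.11 against -0.61, -0.11 and 0.02, a difference of 0.60 ± 0.25. Socs3, which damps cytokine signalling, read 1.14, 0.05 and 0.62 against -0.28, -0.27 and -0.10, the 1 non-overlapping gene of 36 on immune regulation (2.78%, beside 6.76% of all genes).

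Tight junction genes centred on 0, with 14 of 30 above, 16 below and a median of 0.00. The arrays of 2 did not overlap with DSS above (6.67%) and those of 1 with DSS below (3.33%), no more than the 6.76% and 6.64% of all genes. Cldn8, a sealing claudin, read 0.10, 0.33 and 0.29 against 0.07, -0.07 and -0.64, and Cldn7 was also above on all DSS arrays. Crb3, a polarity protein, read -0.34, 0.01 and -0.11 against 0.08, 0.06 and 0.20. Goblet cell genes had a median of -0.14 over 19 genes, with Muc2, Tff3 and Capn9 below on all DSS arrays (15.8%, beside 6.64% of all genes) and Retnlb above (5.26%, beside 6.76%). Tff3, the trefoil factor, read -0.30, -0.14 and -0.20 against 0.11, 0.08 and 0.11, a difference of -0.31 ± 0.08. Pyy, an enteroendocrine hormone, read -0.07, -0.07 and -0.14 against 0.37, 0.27 and 0.15, a difference of -0.36 ± 0.09. The 20 enteroendocrine genes had a median of -0.06, with 1 above on all DSS arrays (5.0%, beside 6.76%) and 2 below (10.0%, beside 6.64%).

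Of 26 genes of the unfolded protein response, 7 lay above water on all DSS arrays (26.9%, beside 6.76% of all genes), among them the chaperones Hspa5, Hsp90b1, Pdia6 and Hyou1. Below water lay 3 (11.5%, beside 6.64%), and the list median was 0.07. Hsp90b1 read 0.32, 0.04 and 0.20 against -0.08, -0.11 and -0.17. Mgst1, a microsomal glutathione transferase, read 0.25, 0.11 and 0.20 against -0.39, -0.25 and -0.39, a difference of 0.53 ± 0.09 with tight replicates. The 37 glutathione and xenobiotic genes as a list had a median of 0.06, with 4 above (10.8%) and 2 below (5.41%), beside 6.76% and 6.64% of all genes. Apob, of lipoprotein export, read 0.36, 0.44 and 0.87 against 0.01, -0.53 and -0.45, while the 23 small intestinal enterocyte genes had a median of -0.12. Oxidative phosphorylation genes, 31 in number, had a median of 0.01, and none reached an unadjusted p under 0.05 in limma.

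Each TG DSS array was also set against the WT difference, which shares no array with it. Across the 19935 genes, which are not independent replicates, DSS array 1 minus the TG water mean correlated with the WT difference at r = 0.61. The same r was 0.01 for DSS array 2 and 0.0 for DSS array 3. The 3 share the TG water mean. For the mean TG difference r was 0.38, and without DSS array 1 it was 0.01. With WT DSS array 2 left out of the WT difference, r was 0.47, 0.10 and 0.09 for TG DSS arrays 1, 2 and 3. Among the 65 genes with DSS above by a gap over 0.2, the WT difference had the same sign in 37 (56.9%, beside 40.6% of all genes). Among the 48 below, it did in 40 (83.3%, beside 59.4%). Without WT DSS array 2 these were 44 (67.7%, beside 42.1%) and 37 (77.1%, beside 57.9%). The WT arrays did not overlap in the same direction for 12 of the 65 (5.45% of all genes lay above in WT) and for 21 of the 48 (10.7% lay below in WT). Ttr, Klk15, Scnn1b, Ciart and Dbp were among the latter, with WT differences of -2.69, -1.53, -1.22, -2.05 and -1.78, each farther from 0 than in TG. None of these contrasts passed in limma.

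**Figure D5:**
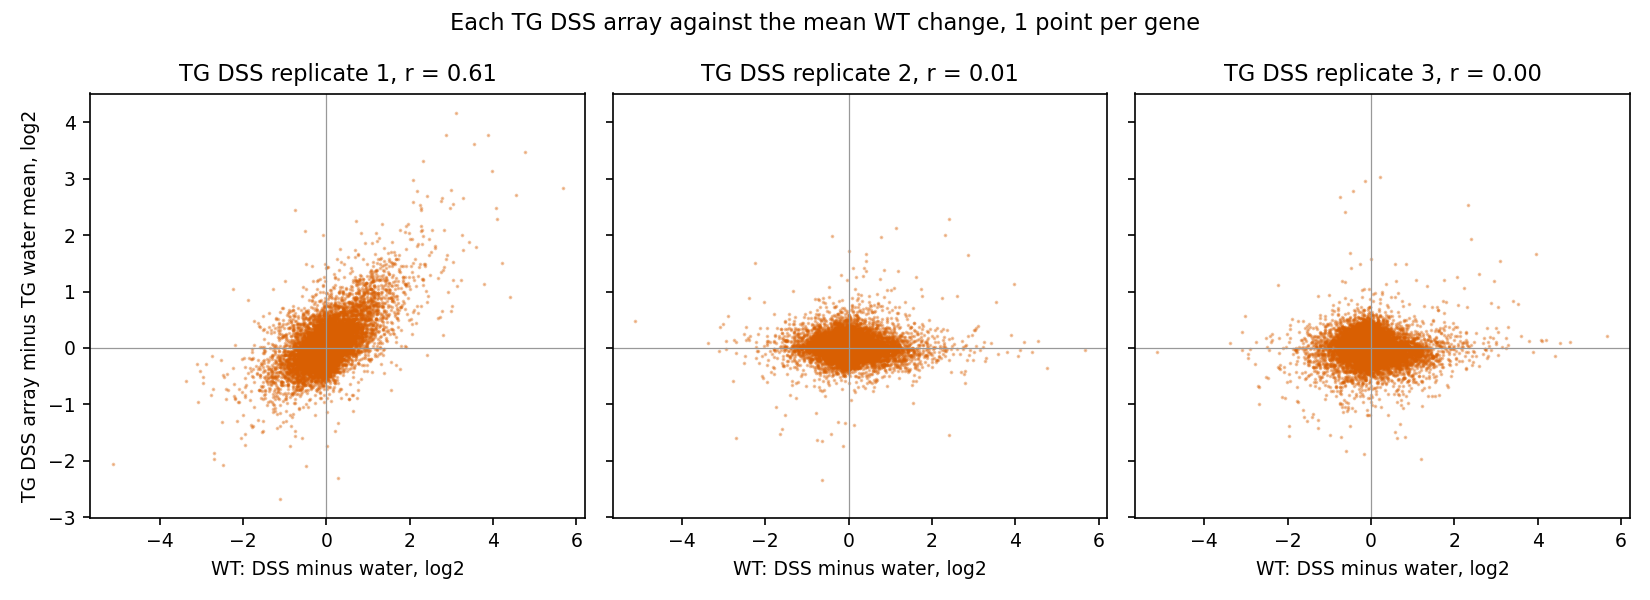
Each TG DSS array minus the TG water mean (y axis, log2) against the mean WT difference between DSS and water (x axis, log2), 1 point per gene for 19935 genes. Points slope upward for DSS replicate 1 (r = 0.61) and form a level band for replicates 2 (r = 0.01) and 3 (r = 0.00).

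Among the genes with a gap over 0.2, those with the smallest p for the TG minus WT contrast were Snapc3, Ccdc93, Lgals2, Pla2g5 and Mgst1. Pla2g5 stood 1.18 higher in TG and had a WT difference of -0.48, so the TG difference minus the WT one was 1.66 ± 0.43. The WT DSS arrays read 0.43, -0.80 and -0.81 and the WT water arrays 0.15, 0.34 and -0.22, with overlap. For Mgst1 the difference of differences was 0.47 ± 0.13, with a WT difference of 0.06. Both had a limma adjusted p of 0.797, so neither contrast passed.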

How the data were processed

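Affymetrix arrays measured RNA of cells that the labels call colon epithelial. Per the submitters' processing notes, the authors ran RMA through Affymetrix Expression Console (versions not given in the sources used here). Values in the deposited table were read as log2, which RMA returns, since the notes state no base. Each probe set's median over the 12 arrays was 0 to within 5e-07, a centring found from the values, so no filter on dim probe sets was possible.

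Of 28815 probe sets, 21780 carried 1 gene symbol and were averaged to 19935 genes. The 1605 with several symbols and 5430 with none were left out. No array pair was identical. Symbols came from GEO's platform annotation, 21689 probe sets being matched to RefSeq of GRCm38.p6, which also gave the promoters.

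DSS minus water in TG was fitted on the 6 arrays alone using lmFit and eBayes of limma 3.58.1 under R 4.3.3 (4 residual and 3.28 prior degrees of freedom). The TG minus WT contrast used 1 mean per group over 12 arrays. P-values were two-sided with Benjamini-Hochberg adjustment over all genes, and the threshold was 0.05. An exact permutation test of 3 against 3 arrays cannot go below p = 0.1. The fits were tested on simulated data.

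The members and the 40 gene lists (897 of 976 entries measured) were chosen with earlier results of these data known, so lists are described by counts and medians without a test. Genes were named by rule, without predicted symbols: Cldn2; the 15 widest gaps each way between arrays that did not overlap; the 6 smallest p; up to 4 genes per list by p, or 8 for 8 lists; the 6 genes each way farthest from the other TG arrays on each TG DSS array; and the 5 genes with a gap over 0.2 and the smallest p for the TG minus WT contrast. List members named outside it, such as Hsd11b2 or Slc26a3, were chosen after their values were seen. Alternatives covered the replicate block, the arrays in the fit, probe sets, centring, array weights, robust eBayes, the threshold and each array left out. After the data were seen, leaving out TG DSS array 1 and TG water array 3 together was added, and leaving each WT DSS array out of the WT difference. Summaries were made in Python 3.11.15 (pandas 2.3.3, numpy 2.4.6) and plots in matplotlib 3.10.9.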

Additional observations from a re-analysis of the deposited data

Results flagged for a closer look

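Snapc3, Ccdc93 and Lgals2 are given as 3 examples. For each, every TG DSS array lay on one side of the TG water arrays and the WT difference had the opposite sign. The unadjusted p for the TG minus WT contrast in limma was under 0.05. Other genes met the same conditions, among them Pla2g5, Slc28a3, Ddx20 and Kctd5. Over all 19935 genes, the arrays did not overlap with TG above and WT below for 94, and the reverse for 9. None of the 3 passed after adjustment (limma adjusted p = 0.797 for each). Snapc3, a subunit of the complex that transcribes small nuclear RNA genes, read -0.22, -0.21 and -0.20 in TG under DSS against 0.06, 0.04 and 0.07 on water, and 0.35, 0.06 and 0.47 in WT under DSS against -0.30, -0.04 and -0.13. Its TG minus WT contrast was -0.72 ± 0.15. Ccdc93, of the complex that recycles proteins from endosomes, read 0.39, 0.42 and 0.55 against -0.02, 0.14 and 0.01 in TG and -0.15, -0.82 and -0.29 against -0.01, -0.05 and 0.09 in WT, a contrast of 0.84 ± 0.21. Lgals2, the gut lectin galectin-2, read 0.37, 0.42 and 0.40 against 0.00, 0.11 and -0.18 in TG and -0.23, -0.63 and -0.09 against -0.08, 0.00 and 0.13 in WT, a contrast of 0.75 ± 0.19. All 3 had TG DSS arrays close to each other, DSS array 1 included.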

How the results depend on the processing

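Every alternative fit of DSS minus water in TG left 0 genes past an adjusted p under 0.05 except weights per array, under which 4 passed: Clca4b at 2.49, Klk15 at -1.26, Pla2g5 at 1.31 and 5830417I10Rik at 1.12 (limma adjusted p = 0.0214 each). Those weights ran from 0.211 for TG water array 3 to 5.212 for TG water array 2. At an adjusted p under 0.10 the count was 0. The 1126 genes at an unadjusted p under 0.05 became 475 with all 12 arrays in the fit, 2625 with weights, 936 with the replicate number as a block and 744 to 1418 with 1 array left out, the lowest without TG DSS array 1. Same-numbered DSS and water arrays deviated with correlations of -0.141, 0.075 and -0.23. DSS arrays 1, 2 and 3 each correlated best with a water array of another number (r = 0.311, 0.219 and 0.355). With 3 arrays per group these values cannot decide whether the numbers pair the samples. The replicate block left 0 genes past the threshold here and in the TG minus WT contrast. That contrast gave 0 to 239 genes with 1 array left out, 239 without WT DSS array 1 and 6 without WT DSS array 3, and Pla2g5 passed at 2.08 without the former. The cause was not tested. Cldn2 ran from -0.22 to 0.04 with 1 array left out, and its direction reversed only without TG DSS array 1. Some genes that stood apart on 1 array, such as Mptx1, also changed direction without that array.

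With 1 array left out, list medians ran from -0.14 to -0.03 (stem cell and Wnt), -0.18 to -0.04 (small intestinal enterocyte), 0.10 to 0.59 (antimicrobial), 0.23 to 0.62 (interferon), -0.05 to 0.23 (cytokines), 0.07 to 0.13 (pattern recognition), -0.08 to 0.00 (survival), -0.04 to 0.05 (oxidative phosphorylation), 0.04 to 0.12 (unfolded protein response), -0.35 to -0.17 (clock) and -0.26 to -0.09 (erythroid). With TG DSS array 1 and TG water array 3 both out they were -0.03 for stem cell and Wnt, -0.02 for small intestinal enterocyte, 0.09 for antimicrobial, -0.05 for survival, 0.01 for unfolded protein response, -0.10 for clock and -0.03 for anterior Hox genes. The other 338 list values moved less than the spread of the arrays. Some lists not given above also had wide ranges with 1 array left out. They were -0.26 to 0.45 (MHC class II), -0.04 to 0.61 (macrophage), -0.07 to 0.51 (matrix) and 0.01 to 0.54 (fibroblast). The B and plasma cell range was -0.13 to 0.34, and that of endothelium -0.25 to 0.08. Of these lists, only fibroblast kept its sign. With 3 arrays per group and no absolute signal, neither dim probe sets nor small differences can be judged.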

Other observations

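The lists of FoxO targets and fatty acid oxidation separated the TG arrays in few members and that of glycolysis and hypoxia in more. No member passed in limma. Fbxo32, a ubiquitin ligase of muscle wasting that FoxO factors induce, read -0.43, -0.09 and -0.18 under DSS against 0.31, 0.28 and 0.17 on water, a difference of -0.49 ± 0.11, and the WT difference was -0.59. Of the 20 genes on that list 16 lay below 0, with a median of -0.13, beside 53.8% of all genes below 0, and Fbxo32 alone did not overlap (5.0%, beside 6.64% with DSS below). Hk2, a hexokinase, read 0.30, 0.00 and 0.15 against -0.41, -0.52 and -0.11, and Car9, a hypoxia-induced carbonic anhydrase, read 0.15, 0.11 and 0.36 against -0.08, -0.26 and -0.59. Pgam1, a later enzyme of glycolysis, stood lower, at -0.06, -0.20 and -0.16 against 0.15, 0.07 and 0.25, and 18 of 23 genes of glycolysis and hypoxia lay below 0 with a median of -0.11. Of those 23, 4 did not overlap with DSS below (17.4%, beside 6.64%) and 2 with DSS above (8.7%, beside 6.76%). Eci1, of fatty acid oxidation, read 0.17, 0.16 and 0.56 against -0.13, -0.05 and -0.06, and 18 of 24 genes of that list lay above 0 with a median of 0.10. Of those 24, 2 did not overlap with DSS above (8.33%, beside 6.76%) and 1 with DSS below (4.17%, beside 6.64%).

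B and plasma cell genes varied between arrays within a treatment: the list medians were 0.70, 0.09 and -0.28 on the DSS arrays and -0.08, -0.40 and 0.51 on the water arrays. Ms4a1, the B cell antigen CD20, read 1.05, 0.33 and -1.26 under DSS and -0.23, -1.34 and 0.34 on water, with overlapping groups.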
